A study of Sus scrofa and Bos taurus with 31 samples.

Results

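The DLX and GAD genes of inhibitory neurons were described here by their open chromatin in the pig. They are 6 genes, DLX1, DLX2, DLX5, DLX6, GAD1 and GAD2, of 20674 protein-coding genes in the RefSeq annotation of the pig assembly Sscrofa11.1, and all 6 were found by symbol. They were chosen for what they do, not for a measured value, but with earlier results of these data known. Open chromatin was mapped by ATAC-seq, an assay that inserts sequencing adapters where DNA is accessible to a transposase, in cryopreserved nuclei from 8 tissues of 2 pigs, P348 and P350. Both pigs were castrated male Yorkshire littermates of 6 months, and no treatment is named. Each tissue is represented by the same 2 animals. The 16 libraries comprised cerebral cortex and hypothalamus, called forebrain here, cerebellum, and 5 non-brain tissues, which were adipose, liver, lung, skeletal muscle and spleen. The tissues are mixtures of cells, so a smaller share of inhibitory neurons and a weaker opening in each of them cannot be told apart.

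Inhibitory neurons release GABA, which the glutamate decarboxylases encoded by GAD1 and GAD2 make from glutamate. The DLX genes encode homeodomain transcription factors that act in the embryonic ventral forebrain, where most inhibitory neurons of the cortex are born, and they lie in pairs that are transcribed towards each other. The inhibitory neurons of the cerebellum, among them the Purkinje cells, arise from another part of the embryonic brain and are specified by other factors, while they use the same decarboxylases. Hypothalamus holds many GABA-releasing neurons of mixed origin.

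DLX1 and DLX2 form a pair on chromosome 15, at chr15:78186667-78191788 on the plus strand and chr15:78200696-78204264 on the minus strand, with 8907 bp between them. DLX6 and DLX5 form a pair on chromosome 9, at chr9:76623489-76630296 on the plus strand and chr9:76639915-76643689 on the minus strand, with 9618 bp between them. GAD1 lies at chr15:76991863-77034819 on the plus strand, 1151847 bp before DLX1, and GAD2 at chr10:49316682-49391013 on the minus strand. A window of each gene plus 10 kb on either side was used. The windows of a pair overlap, METAP1D reaches into that of DLX1 and MYO3A into that of GAD2, and no transcription start site (TSS) of another protein-coding gene outside the 6 falls in them.

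The peak lists held 99960 to 217308 peaks that covered 64.1 to 155.6 Mb, and read depth was not used here. The longest lists, with 217308 and 207917 peaks, were those of cerebellum. Peak bases in a window were therefore divided by the peak bases of the whole library, in Mb. On that scale the median gene differed between cerebellum and the non-brain tissues by a log2 difference of -1.1, and cerebellum differences are also given relative to that shift. The tissue markers set the tissues apart only in part on this scale. The summed value of the neuron genes (4 of 5 in the annotation, such as SNAP25 and SYT1) was 577 to 632 in cortex, 307 to 377 in hypothalamus, 148 to 241 in cerebellum and 136 to 351 in the non-brain libraries. The summed value of the cortex markers TBR1 and NEUROD6 was 67.5 to 76.7 in cortex and 37.7 to 81.5 in the non-brain libraries. These ranges overlapped. The 3 hypothalamus markers summed to 143 to 200 in hypothalamus, 145 to 162 in cerebellum and 28.2 to 170 in the non-brain libraries. The 3 cerebellum markers summed to 81.3 to 87.9 in cerebellum and 44.9 to 97.0 in the non-brain libraries. They were higher in hypothalamus, at 93.1 to 125, than in cerebellum. The 2 excitatory neuron genes summed to 68.0 to 74.8 in cortex and 51.6 to 104 in the non-brain libraries. For 4 microglia genes the sums were 143 to 174 in cortex and 101 to 331 in the non-brain libraries. For 4 astrocyte genes they were 248 to 267 and 119 to 225. The summed value of 4 oligodendrocyte genes was 204 to 254 in cortex, 192 to 205 in hypothalamus, 31.3 to 86 in cerebellum and 73.8 to 166 in the non-brain libraries, and the part of cell makeup in the results was not tested.

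A peak within 2 kb of a TSS was a common property of these genes in all tissues, including those without neurons of this kind. DLX1 and DLX6 had one in all 16 libraries, DLX2 in 15, GAD2 in 15, GAD1 in 14 and DLX5 in 11. So 5 of the 6 genes had a TSS peak in 14 or more libraries, and 65.2% of all protein-coding genes did. A peak in all 16 libraries was present for 2 members and for 54.7% of all genes. The missing TSS peaks were those of DLX2 in cerebellum of P350, GAD2 in skeletal muscle of P350, GAD1 in both spleen libraries, and DLX5 in hypothalamus of P350, adipose, liver and spleen of P348 and skeletal muscle of P350. The RefSeq start of DLX6 itself was covered in few libraries, and its peak lay about 1.0 kb inside the gene: within 500 bp, a peak was present in 1 library. The fold enrichment of these peaks, the signal over the local background that the peak caller gave, varied more between tissues.

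DLX1, a transcription factor of ventral forebrain progenitors and inhibitory neurons, had its strongest TSS peaks in cortex. The fold was 7.73 in P348 and 6.39 in P350 of cortex, and 4.45 and 5.72 in hypothalamus. It was 2.70 and 3.04 in cerebellum, and 3.15 to 5.64 with a median of 3.94 in the 10 non-brain libraries. Both cortex libraries were above all 10 non-brain libraries, as in 5.63% of the 15872 genes with a TSS peak in 8 or more libraries. The hypothalamus libraries overlapped them, and both cerebellum libraries were below all other 14, as in 4.22% of genes. The strongest peak was that of cortex P348. Its central part is shown because the tissue difference of DLX1 lies there, with capitals for CG dinucleotides, and it ends at the last base before the transcript since untranslated sequence was left out (chr15:78186560-78186666, Sscrofa11.1, plus strand, RefSeq).
DLX1 promoter: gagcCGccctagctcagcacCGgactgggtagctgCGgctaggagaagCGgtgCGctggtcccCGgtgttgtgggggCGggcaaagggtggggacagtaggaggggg

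DLX2, the other factor of this pair, which overlaps DLX1 in its role, did not follow the fold of DLX1. Its TSS fold was 3.48 and 3.30 in cortex, 2.55 and 2.84 in hypothalamus, 2.73 and no peak in cerebellum, and 2.15 to 3.99 in the non-brain libraries. Both liver libraries, at 3.78 and 3.99, were above both cortex libraries, so the groups overlapped. Another region of the pair, upstream of DLX2 at chr15:78208110-78209775, was open in 15 libraries. Its fold was highest in spleen of P348, at 5.42, and was 4.03 and 4.39 in cortex. It overlaps the annotated locus LOC110257106. In peak bases per Mb, DLX1 had 19.1 and 17.5 in cortex, 28.0 and 19.5 in hypothalamus, 6.55 and 15.8 in cerebellum, and 19.1 to 45.2 with a median of 24.5 in the non-brain libraries. DLX2 had 33.8 and 32.1 in cortex, 38.6 and 21.0 in hypothalamus, 13.5 and 14.6 in cerebellum, and 21.1 to 52.3 with a median of 35.9 in the non-brain libraries. Both genes were lower in both cerebellum libraries than in all other 14, as were 34.2% of the 19414 genes tested. For DLX2, 3 of the 4 forebrain libraries lay within the non-brain range and hypothalamus of P350 (21.0) lay just below it (21.1), and for DLX1 both cortex libraries lay at or just below it. The span between the genes held 1 or 2 peaks in all 16 libraries, which covered 3.42% to 11.7% of it in forebrain and 5.86% to 23.4% in the non-brain libraries.

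DLX5 and DLX6, which act after DLX1 and DLX2 in the same lineage and also in bone and limb, showed little order by tissue. The TSS fold of DLX6 was 2.73 to 3.94 over the 16 libraries, with 3.43 and 3.58 in cortex, 3.37 and 2.87 in hypothalamus, 2.82 and 2.73 in cerebellum, and 2.84 to 3.94 in the non-brain libraries. Both cerebellum libraries were thus the lowest, but in adipose of P348 the value of 2.84 came from another region 1553 bp before the gene, and at the region open in all 16 libraries adipose of P348 had 2.66, below both cerebellum libraries. The TSS peak of DLX5, where present, had a fold of 2.2 to 3.06. In peak bases per Mb, DLX5 had 17.8 and 18.5 in cortex, 42.5 and 16.6 in hypothalamus, 10.4 and 16.5 in cerebellum, and 5.41 to 28.1 in the non-brain libraries. DLX6 had 41.2 and 21.3 in cortex, 48.1 and 32.7 in hypothalamus, 23.2 and 25.2 in cerebellum, and 20.9 to 42.2 in the non-brain libraries. Hypothalamus of P348 was the highest library for both genes, and hypothalamus of P350 was 16.6 for DLX5, inside the range of the other tissues. The span between the genes was covered by 1 peak in all 4 forebrain and both cerebellum libraries and by 0 to 2 peaks in the non-brain libraries. Away from a TSS, 2 regions of this pair were open in all 4 forebrain libraries. One, at chr9:76635475-76638008 in the span between the genes, was open in 14 libraries, both cerebellum libraries included, with forebrain folds of 2.53 to 3.0. The other lay 2655 bp upstream of DLX5. It lies at chr9:76646344-76647257. Its fold was 3.82 and 4.27 in cortex and 2.98 and 6.56 in hypothalamus, it was absent from cerebellum and skeletal muscle, and it was 2.31 to 5.40 in the other 8 non-brain libraries, with both liver libraries and spleen of P350 (4.31) above both cortex libraries. The centre of its strongest peak, that of hypothalamus P350, is shown because the region was open in all 4 forebrain libraries and in neither cerebellum library (chr9:76646806-76647044, plus strand, capitals for CG).
DLX5 upstream region: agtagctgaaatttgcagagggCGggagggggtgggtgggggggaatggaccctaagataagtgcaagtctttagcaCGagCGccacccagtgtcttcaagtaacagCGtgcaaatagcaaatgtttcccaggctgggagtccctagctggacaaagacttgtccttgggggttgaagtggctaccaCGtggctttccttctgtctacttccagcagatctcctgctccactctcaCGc

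GAD1, the decarboxylase found throughout the neuron, had its strongest TSS peaks in skeletal muscle and not in brain. The TSS fold was 7.26 and 6.08 in skeletal muscle, 2.62 and 2.20 in cortex, 3.23 and 2.53 in hypothalamus, and 2.52 and 3.27 in cerebellum. Adipose, liver and lung lay between 2.2 and 2.99, and both spleen libraries had no TSS peak. Both skeletal muscle libraries were above all other 14, which also held for 10.6% of genes. Brain and the remaining tissues overlapped. The part of the muscle peak's centre that lies in the first intron is shown, with capitals for CG and for the E-box CAGCTG (chr15:76992027-76992200, plus strand).
GAD1 first intron, skeletal muscle peak: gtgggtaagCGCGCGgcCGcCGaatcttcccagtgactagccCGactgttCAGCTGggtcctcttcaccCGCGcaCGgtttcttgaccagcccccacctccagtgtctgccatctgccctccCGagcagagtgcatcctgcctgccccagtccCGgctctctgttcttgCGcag
An intronic region of GAD1 was open mainly in brain. It lies 35557 bp from the start, at chr15:77028205-77028701, and its fold was 4.42 and 6.14 in cortex, 4.01 and 5.12 in hypothalamus, 2.93 and 4.66 in cerebellum, and 3.11 and 3.30 in skeletal muscle. The other 8 libraries had no peak there. The region was chosen by its number of forebrain libraries and then by the fewest other libraries. Its pattern thus follows in part from that choice. The share of all regions with the 4 forebrain folds above all 10 non-brain libraries, as here, was not counted. Both skeletal muscle libraries were above cerebellum of P348. Cerebellum of P350 lay within the forebrain range. Its centre is shown because the region was open in all 6 brain libraries and, outside brain, in skeletal muscle only (chr15:77028271-77028570, plus strand, capitals for CG). The TSS region of GAD1 was also open in all 6 brain libraries.
GAD1 intronic brain region: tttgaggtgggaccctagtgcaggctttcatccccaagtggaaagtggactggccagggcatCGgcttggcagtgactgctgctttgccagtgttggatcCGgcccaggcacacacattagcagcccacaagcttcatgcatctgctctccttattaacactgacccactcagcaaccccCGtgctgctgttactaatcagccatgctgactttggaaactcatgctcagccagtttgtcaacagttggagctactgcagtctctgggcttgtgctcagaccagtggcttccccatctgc
Over the whole window GAD1 did not separate brain from the rest. Its peak bases per Mb were 15.4 and 12.6 in cortex, 21.1 and 9.12 in hypothalamus, 7.98 and 12.9 in cerebellum, and 3.60 to 32.9 with a median of 11.9 in the non-brain libraries.

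GAD2, the decarboxylase concentrated at nerve endings, was the member whose TSS fold was highest in the 4 forebrain libraries. Its TSS fold was 4.73 and 4.35 in cortex and 3.91 and 4.19 in hypothalamus. It was 2.25 and 2.62 in cerebellum and 2.44 to 3.52 in 9 of the non-brain libraries, and skeletal muscle of P350 had no peak. All 4 forebrain libraries were above all other 12, which also held for 1.2% of genes. The strongest peak was that of cortex P348. Its centre, upstream of the annotated start, is shown because the 4 forebrain libraries had the highest folds at this peak, with capitals for CG and for the E-box CAGCTG (chr10:49391209-49391508, plus strand, so that the gene runs to the left).
GAD2 promoter: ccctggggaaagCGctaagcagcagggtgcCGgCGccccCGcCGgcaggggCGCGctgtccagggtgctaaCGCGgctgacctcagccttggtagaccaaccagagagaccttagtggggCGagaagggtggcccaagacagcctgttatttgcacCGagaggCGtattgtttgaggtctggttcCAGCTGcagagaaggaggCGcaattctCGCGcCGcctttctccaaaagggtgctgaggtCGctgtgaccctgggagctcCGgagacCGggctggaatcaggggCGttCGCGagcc
An intronic region 41964 bp from the start was strong in forebrain too, with folds of 6.54 and 6.70 in cortex and 3.61 and 6.20 in hypothalamus. It also had folds of 6.43 and 5.22 in spleen, 4.65 and 3.45 in liver, 3.29 in lung of P348 and 2.31 in cerebellum of P350, so forebrain and spleen overlapped. The centre of its strongest peak, that of cortex P350, is shown, with capitals for CG and for the homeodomain core TAATTA (chr10:49347940-49348239, plus strand).
GAD2 intronic region: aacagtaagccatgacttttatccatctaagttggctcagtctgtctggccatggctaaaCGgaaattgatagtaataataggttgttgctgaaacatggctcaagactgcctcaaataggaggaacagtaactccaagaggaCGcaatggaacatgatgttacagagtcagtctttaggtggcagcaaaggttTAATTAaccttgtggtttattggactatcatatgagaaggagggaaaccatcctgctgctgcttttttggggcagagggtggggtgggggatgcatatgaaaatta
The peak bases of GAD2 had another order. They were 75.2 and 93.3 per Mb in cerebellum, 28.3 and 54.3 in cortex, 29.0 and 33.7 in hypothalamus, and 16.5 to 57.6 with a median of 43.6 in the non-brain libraries. Both cerebellum libraries were above all other 14, as in 4.54% of genes, and both skeletal muscle libraries, at 18.8 and 16.5, were below all other 14, as in 6.38%. Forebrain lay inside the range of the non-brain tissues. For no member were the 4 forebrain libraries above all other 12 in peak bases, as in 0.391% of genes.

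**Figure D1:**
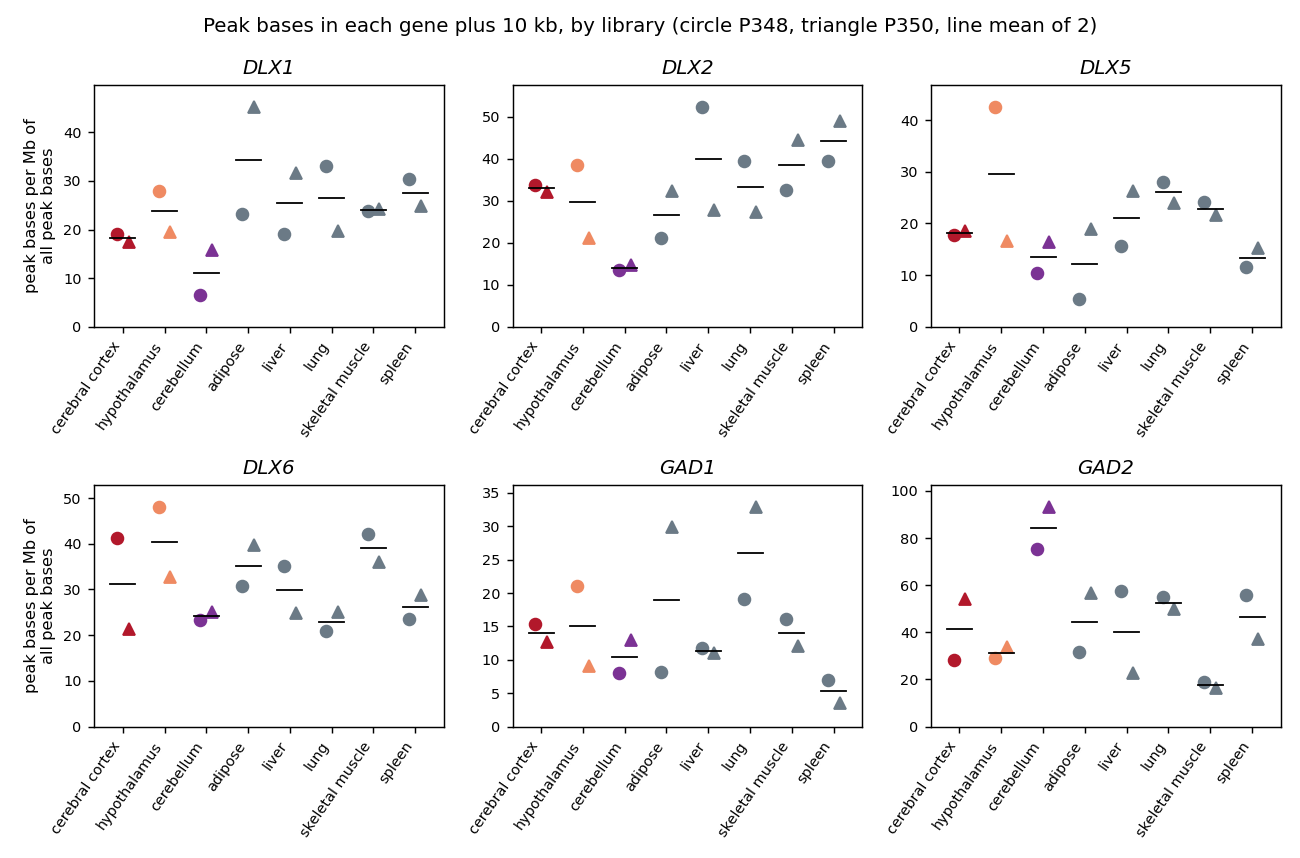
Peak bases in each gene plus 10 kb, per Mb of all peak bases of the library, for the 8 tissues on the x axis. Circles are P348, triangles P350 and black lines the mean of both. Cerebellum is the highest tissue for GAD2, at 75.2 and 93.3, and the lowest for DLX1 and DLX2, and forebrain stands apart for no gene.

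**Figure D2:**
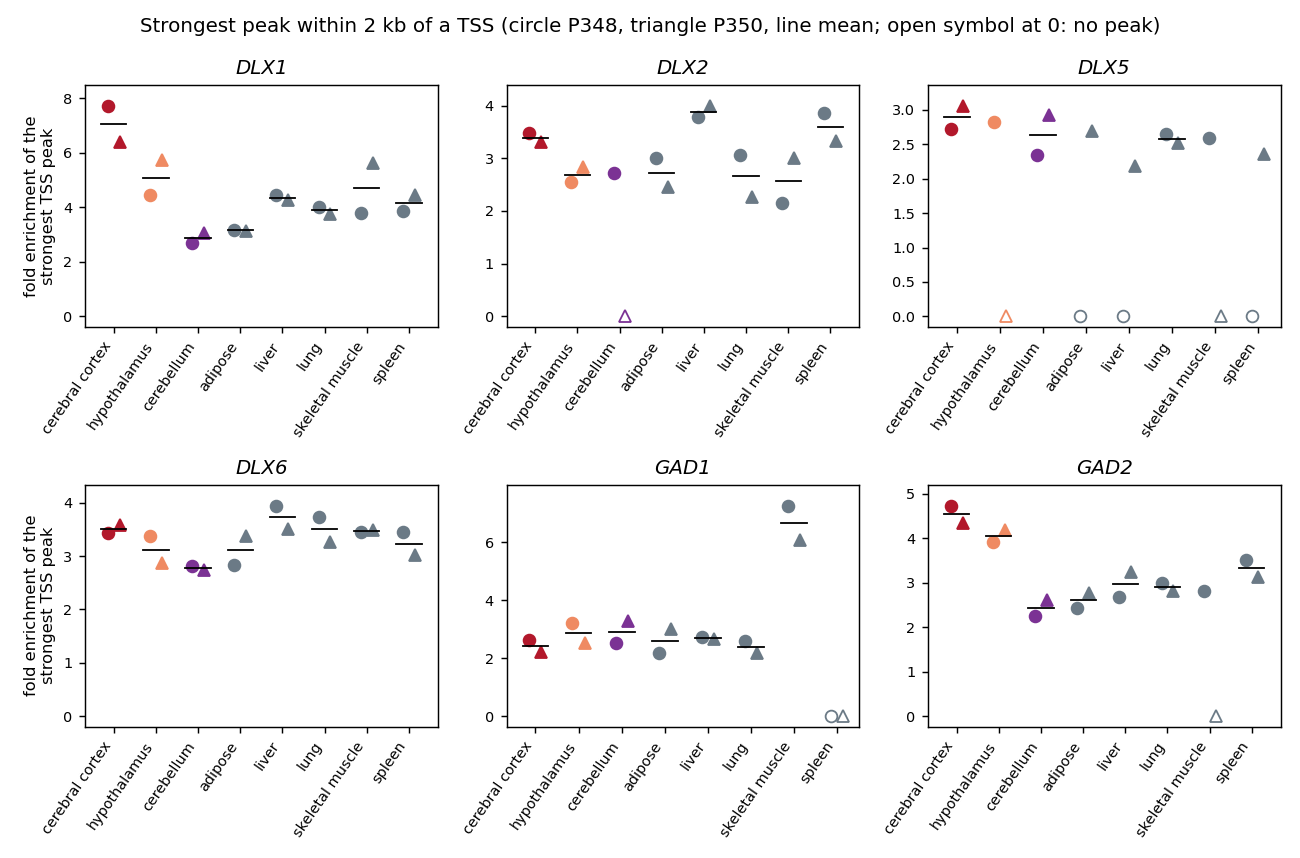
Fold enrichment of the strongest peak within 2 kb of a TSS by tissue, with circles for P348, triangles for P350, black lines for the mean where both have a peak, and open symbols at 0 where there is no peak. DLX1 is highest in cortex (7.73 and 6.39), GAD2 in the 4 forebrain libraries (3.91 to 4.73) and GAD1 in skeletal muscle (7.26 and 6.08).

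The design allows each brain tissue to be compared with the 5 non-brain tissues, and forebrain with cerebellum, in 1 limma fit over all genes and 16 libraries, on log2(peak bases per Mb + 1). No member passed an adjusted p of 0.05 in cortex, against 1.19% of 19414 genes that were higher there and 0.572% that were lower. The 6 log2 differences lay between -0.52 (DLX1) and 0.12 (GAD1), with a median of 0.02 beside -0.13 for all genes, and 0 members had an unadjusted p under 0.05. No member passed in hypothalamus either, where 3.79% of genes were higher and 7.78% lower, with log2 differences between -0.30 (DLX2) and 0.58 (DLX5) and again 0 members at an unadjusted p under 0.05. Hypothalamus against cortex gave 0 members called, beside 0.155% of genes higher and 0.258% lower, and 0 at an unadjusted p under 0.05, with log2 differences from -0.32 to 0.53. With the SE of a difference between 0.28 and 0.59 in these comparisons, differences of that size were not detectable.

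In cerebellum 3 members passed. DLX1 was lower than in the non-brain tissues by a log2 difference of -1.30 ± 0.36 (SE, limma adjusted p = 0.0066), DLX2 by -1.27 ± 0.31 (limma adjusted p = 0.0030), and GAD2 was higher by 1.17 ± 0.34 (limma adjusted p = 0.0092). Of all genes 61.7% were lower and 10.2% higher. The median of all genes was -1.1, so DLX1 and DLX2 stood at -0.20 and -0.17 relative to it and GAD2 at 2.27. With each library centred on its median gene, 15.1% of genes were lower and 20.8% higher, DLX1 (-0.22) and DLX2 (-0.19) no longer passed, and GAD2 and DLX6 (0.79, limma adjusted p = 0.026) were called higher. Without cerebellum P348, DLX1 was -0.72 (limma adjusted p = 0.18) and GAD2 1.32 (limma adjusted p = 0.051), and without cerebellum P350 GAD2 was 1.02 (limma adjusted p = 0.084).

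Forebrain against cerebellum gave 2 members, DLX2 higher in forebrain by 1.07 ± 0.34 (SE, limma adjusted p = 0.0228) and GAD2 lower by -1.23 ± 0.38 (limma adjusted p = 0.0210), where 43.5% of all genes were higher and 5.51% lower and the median of all genes was 0.84. DLX1 was 0.95 ± 0.40 (limma adjusted p = 0.066). Relative to the median gene DLX1 stood at 0.11, DLX2 at 0.24 and GAD2 at -2.07. With libraries centred, 6.78% of genes were higher and 10.7% lower. DLX1 was then 0.13 (limma adjusted p = 0.83), and DLX2 (0.26, limma adjusted p = 0.58) no longer passed. Neither call was kept without cerebellum P348 (DLX2 1.02, GAD2 -1.39), cortex P348 (1.06 and -1.01) or, for GAD2, cerebellum P350 (-1.08), and that of DLX2 was also lost without hypothalamus P348 (0.86) or cerebellum P350 (1.13). DLX1 passed without cerebellum P350 (1.52, limma adjusted p = 0.017). It also passed with peaks of q under 0.01 (2.96, limma adjusted p = 0.020), with lists of equal length (2.64, limma adjusted p = 0.031) and with windows of 50 kb (1.07, limma adjusted p = 0.0040). GAD2 did not pass with peaks of q under 0.01 (-0.89, limma adjusted p = 0.091) or with lists of equal length (-0.94, limma adjusted p = 0.065). The shares of all genes called under these other settings are not given here.

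The fold of the TSS peak was tested in the same way, on log2 values less the library's median, with a fold of 1 where there was no peak, for 15872 genes. This measure was added after the peak bases had been seen. DLX1 was higher in cortex than in the non-brain tissues by 0.79 ± 0.14 (SE, limma adjusted p = 0.0070), as were 7.57% of genes (3.8% were lower), and higher in forebrain than in cerebellum by 0.76 ± 0.16 (limma adjusted p = 0.0202), as were 4.08% (2.14% were lower). The first call was lost without cortex P348 (0.65, limma adjusted p = 0.13) or cortex P350 (0.93, limma adjusted p = 0.058), and the second without cortex P348 (0.69, limma adjusted p = 0.065) or cerebellum P348 (0.77, limma adjusted p = 0.099). DLX1 in hypothalamus was 0.26 ± 0.14 (limma adjusted p = 0.28). GAD2 was 0.77 ± 0.30 in cortex (limma adjusted p = 0.12) and 0.55 ± 0.30 in hypothalamus (limma adjusted p = 0.26). Skeletal muscle P350, which had no GAD2 peak, stands at a fold of 1 in these values. With that library removed, GAD2 passed in cortex (0.61, limma adjusted p = 0.023) and did not pass in hypothalamus (0.38, limma adjusted p = 0.11) or in forebrain over cerebellum (0.53, limma adjusted p = 0.069). With every value without a peak left out for every gene, it passed in all 3, at 0.61 ± 0.11 (limma adjusted p = 0.0023), 0.38 ± 0.11 (limma adjusted p = 0.033) and 0.53 ± 0.12 (limma adjusted p = 0.019). Without skeletal muscle P348 it was 0.94 in cortex (limma adjusted p = 0.0055) and 0.71 in hypothalamus (limma adjusted p = 0.014), and in forebrain over cerebellum it passed with none of the 16 libraries left out in turn. No member passed in hypothalamus (5.59% of genes higher, 5.69% lower), in cerebellum (10.3% higher, 1761 of 15872 lower) or in hypothalamus against cortex (0.183% and 0.699%) by limma, with 0, 1 (GAD1) and 1 (DLX1) members at an unadjusted p under 0.05. In cortex, DLX2, DLX5, DLX6 and GAD1 had log2 differences between -0.11 (GAD1) and 0.72 (DLX5).

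**Figure D3:**
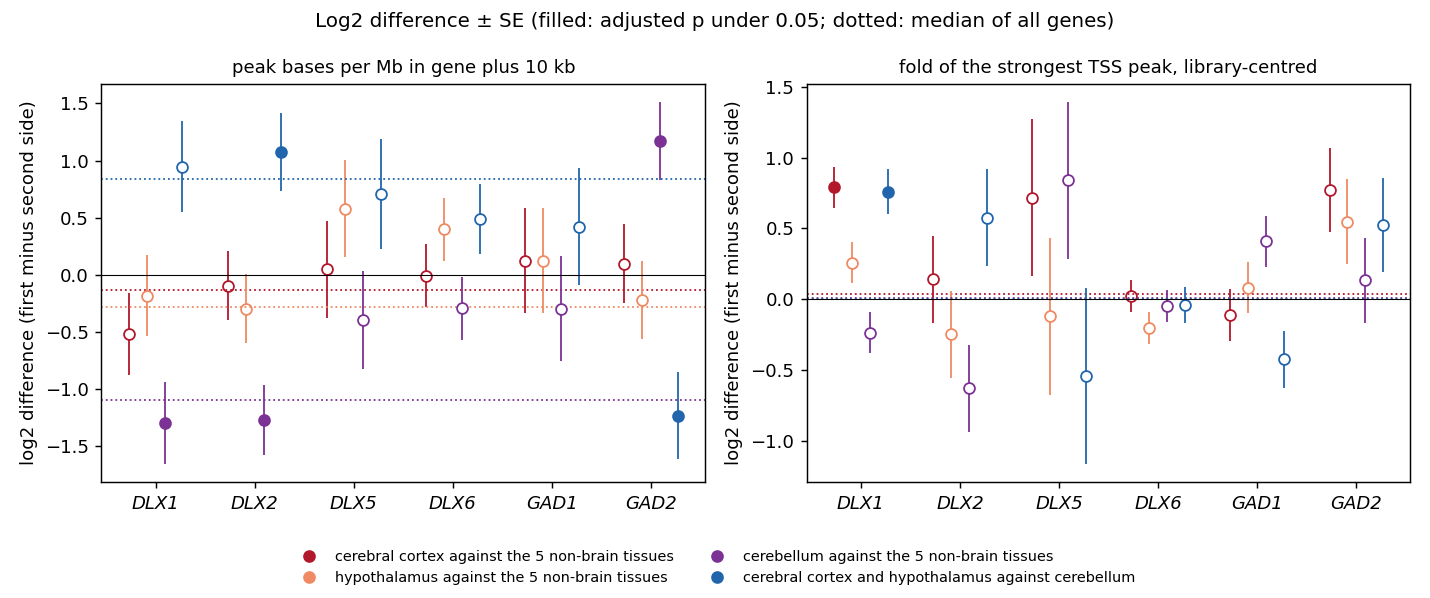
Log2 difference (y axis) of the 6 genes for 4 comparisons, for peak bases per Mb on the left and TSS peak fold on the right. Points are estimates, bars 1 SE, filled points have an adjusted p under 0.05 and dotted lines mark the median of all genes. On the left the filled points of DLX1 and DLX2 in cerebellum lie close to the dotted line at -1.1 while GAD2 lies above it at 1.17, and on the right DLX1 is filled in cortex (0.79) and in forebrain over cerebellum (0.76).

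The cerebellum excess of GAD2 was made of weak peaks. Of its 25 merged regions, 20 held a cerebellum peak (80.0%, against 53.1% of all 533944 pig regions) and 12 held peaks of both cerebellum libraries (48.0%, against 24.3%). The folds of these cerebellum peaks were 2.13 to 3.13 with a median of 2.57, beside 2.56 to 6.70 with a median of 3.30 in forebrain. Low cerebellum folds were not particular to GAD2. The cerebellum median was 2.73 at DLX1-DLX2, 2.67 at DLX5-DLX6 and 2.86 at GAD1, beside 3.55, 2.89 and 3.56 in forebrain. With only peaks of a q-value under 0.0001, called strong here, GAD2 had no peak in either cerebellum library, as was the case for 18.2% of 18479 genes. Strong peak bases per Mb of all strong peak bases were then 53.1 and 29.1 in cortex and 35.4 and 76.0 in hypothalamus. They were 26.8 and 0 in liver, 17.7 and 15.7 in skeletal muscle, 17 and 22.5 in spleen, and 0 in adipose and lung. All 4 forebrain libraries were above all other 12, as in 0.942% of genes. The direction of GAD2 between forebrain and cerebellum was thus reversed: forebrain was higher by a log2 difference of 5.53 (limma adjusted p = 0.0060), beside 11.8% of genes called higher, a size that depends on the pseudocount because cerebellum was at 0. In hypothalamus against the non-brain tissues it was 3.55 (limma adjusted p = 0.043, beside 3.92% of genes), and in cortex 3.15 (limma adjusted p = 0.075). These tests of strong peaks were not repeated with libraries left out. Cerebellum had 25092 and 35792 strong peaks among its 217308 and 207917 peaks. Cortex had 55400 and 67687 among 148722 and 164080, and hypothalamus 25576 and 40630 among 105665 and 146884. The part of this in the result was not tested.

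For no other member were the 4 forebrain libraries above all other 12 in strong peak bases. DLX1, DLX2, DLX5 and DLX6 also had 0 in both cerebellum libraries, as had 18.2% of genes. DLX1 and DLX2 were called higher in forebrain than in cerebellum (log2 differences 5.15 and 2.89, limma adjusted p = 2.6e-05 and 0.049), as were 11.8% of genes. Both were called lower in cerebellum than in the non-brain tissues (-5.13 and -4.86, limma adjusted p = 1.1e-05 and 0.0013), as were 22.1% of genes, and these sizes, like those of DLX2 in hypothalamus, depend on the pseudocount. The numbers of strong peaks differed between these tissues as given above, and their part was not tested. Strong peaks at DLX1 were present in all 14 libraries outside cerebellum, with 18.2 to 86.6 per Mb in forebrain and 14.5 to 132 in the non-brain libraries. DLX2 had 56.3 and 51.5 in cortex and 0 in both hypothalamus libraries, both cerebellum libraries and adipose of P350. DLX2 was called lower in hypothalamus than in cortex (-5.78, limma adjusted p = 0.012), as were 1.85% of genes, and than in the non-brain tissues (-4.86, limma adjusted p = 0.0035), as were 4.81%. DLX6 had strong peaks in cortex of P350 (26.1), in spleen of P348 (44.4) and in all liver, lung and skeletal muscle libraries (18.3 to 64.4). DLX5 had strong peaks in both cortex libraries (11.2 and 13), hypothalamus of P350 (8.97), both liver libraries (29.9 and 41.1) and spleen of P350. GAD1 had them in both cortex libraries (19.1 and 14.3), hypothalamus of P350 (23.6), cerebellum of P350 (16.8), both skeletal muscle libraries (16 and 10.6) and lung of P350.

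**Figure D4:**
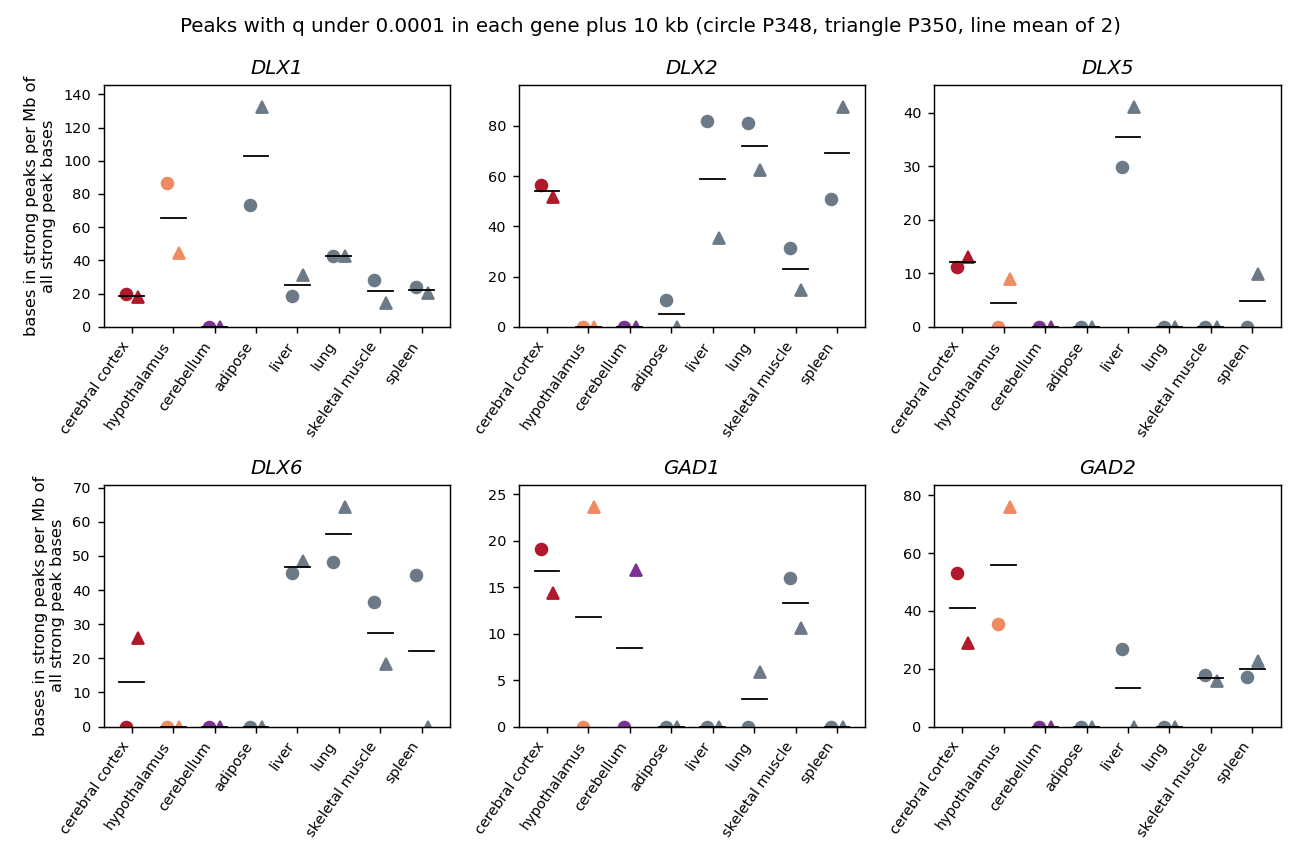
Bases in peaks with a q-value under 0.0001 in each gene plus 10 kb, per Mb of such bases in the library, by tissue, with circles for P348, triangles for P350 and lines for the mean of both. For GAD2 the 4 forebrain libraries (29.1 to 76.0) lie above all others and cerebellum is at 0, and DLX1 is at 0 in cerebellum only.

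Merging the peaks of the 16 libraries gave 69 regions at the 4 loci, 13 at DLX1-DLX2, 14 at DLX5-DLX6, 17 at GAD1 and 25 at GAD2. Of them 26 were seen in 1 library, and 33.4% of all regions were. Regions in 14 or more libraries numbered 8, beside 5.85% of all regions, 4 of them at DLX1-DLX2. Regions in all 16 numbered 2, beside 3.15%, and were that at the DLX1 start and that 1036 bp from the DLX6 start. Regions open in all 4 forebrain libraries numbered 11, beside 9.46% of all regions, and only at 1 of these, the GAD2 promoter, were the 4 forebrain folds above those of the other 12 libraries, beside 13.0% of such regions. Of the 69 regions, 16 were open in both animals of cortex or of hypothalamus, and 0 of them lacked a peak in every non-brain library, beside 13.9% of such regions in the series. With a peak in either animal it was 3 of 29, beside 26.9%. Among strong peaks the count was 3 of 9, beside 25.5%. These 3 were the GAD2 promoter (chr10:49390743-49391645, all 4 forebrain libraries and no other), a second GAD2 intronic region (chr10:49349987-49351034, both cortex libraries and hypothalamus of P350), and the GAD1 intronic brain region (the same libraries and cerebellum of P350). The 4 loci held 21 strong regions, of which 1 had a cerebellum peak, beside 22.3% of all strong regions.

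Skeletal muscle had 2 regions of high fold inside GAD2. One, at chr10:49346025-49346394, had folds of 5.53 and 6.90 in skeletal muscle and no peak in the other 14 libraries. The other, at chr10:49324998-49326683, reaches an exon and had folds of 6.58 and 9.54 in skeletal muscle and of 2.72 to 4.26 in 6 other libraries. The GAD2 promoter was weak (2.82) or without a peak in that tissue. The share of all regions with peaks in skeletal muscle only was not counted. The skeletal muscle lists held 79389 strong peaks of 125828 and 74451 of 99960, the most strong peaks of the 16 libraries. The part of this in the high folds was not tested.

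**Figure D5:**
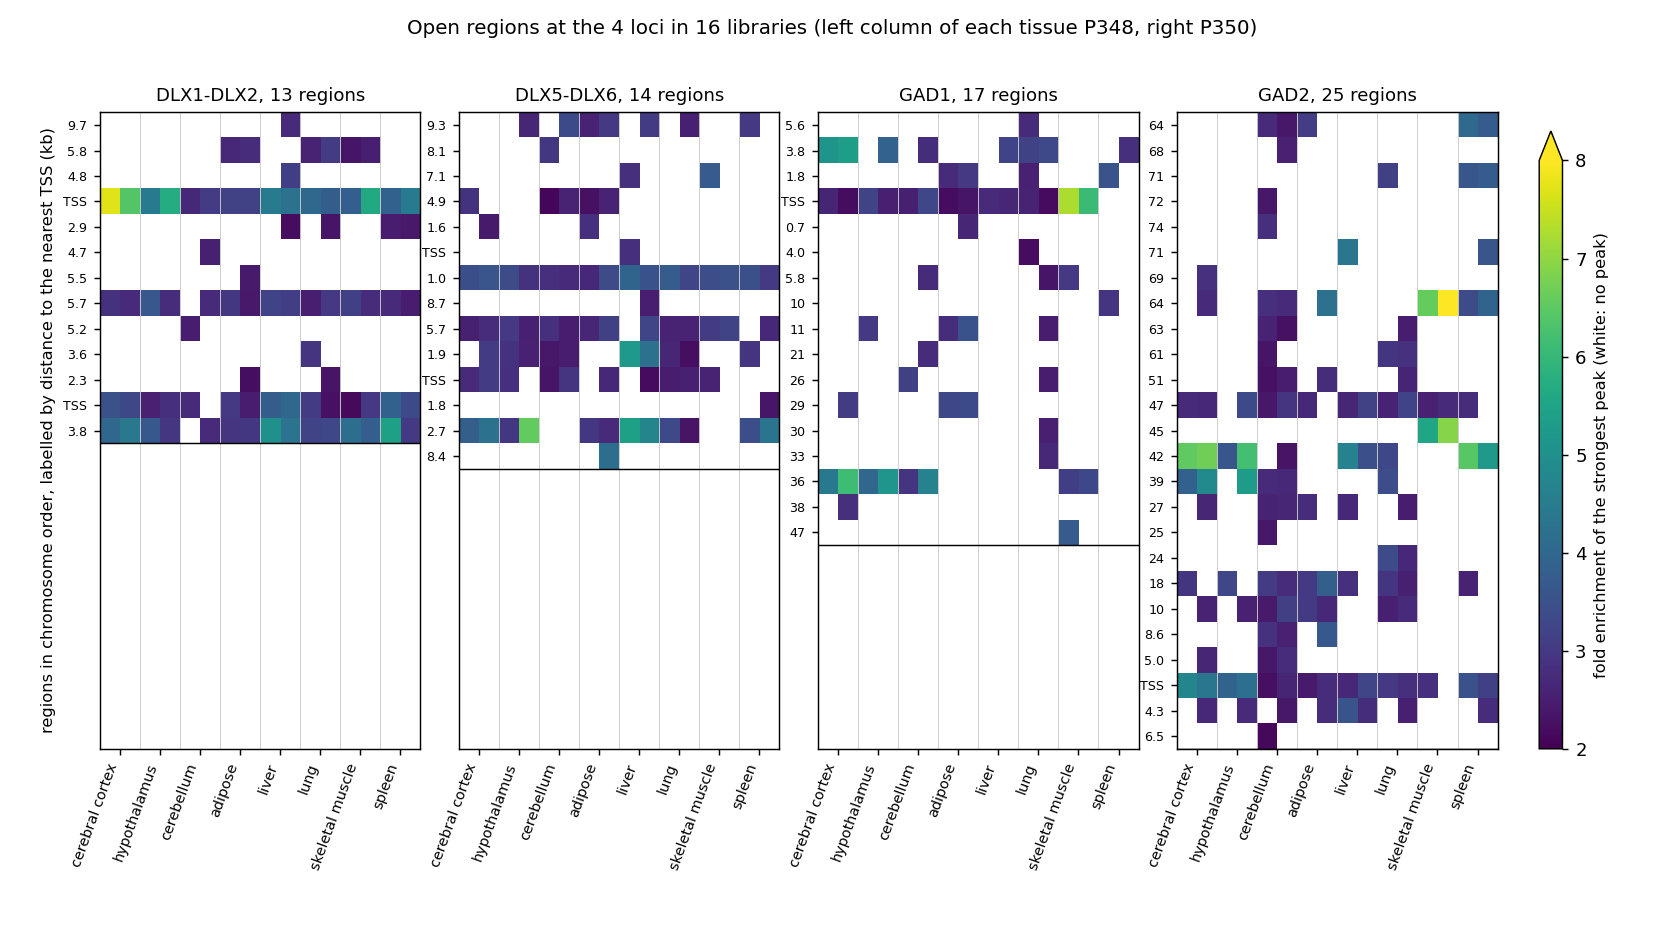
Fold enrichment (colour, from 2 to 8 and above) of the strongest peak of each library in the 69 regions of the 4 loci. Rows are regions in chromosome order labelled by distance to the nearest TSS, columns are libraries grouped by tissue, and white marks no peak. The DLX loci show rows filled across tissues, GAD2 shows cerebellum columns filled with low folds (2.13 to 3.13), and high folds outside brain stand at the GAD1 TSS and inside GAD2 in skeletal muscle.

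The widely open regions were rich in CG dinucleotides. The 8 regions in 14 or more libraries had a median GC content of 65.5% and a median observed to expected CpG ratio of 0.74 in their central 300 bases, beside 58.3% and 0.47 for the 31225 such regions of the series. The 26 regions in 1 library had 51.8% and 0.28, beside 45.7% and 0.21. The printed DLX1 promoter is an example of the first kind and the intronic GAD2 region, with 2 CG dinucleotides in 300 bases, of the second composition. The printed sequences are centred on the strongest single peak, and the shares here on the middle of the merged region, which for the GAD1 TSS, the GAD2 promoter and the GAD2 intronic region holds none of the 3 motifs. Motifs were searched in the central 300 bases of each merged region on both strands, and none of the 3 motifs contains another. TAATTA, the homeodomain core, was in 7.25% of the 69 regions and 6.78% of all regions. CAGCTG, the E-box, was in 11.6% and 20.6%, and TGACAG, the core that MEIS factors read, in 24.6% and 19.0%. These matches are letters in a window and not binding sites.

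Other genes of inhibitory neurons were described in the same fit by lists. Of 6 genes of GABA handling, 0 passed in cortex or hypothalamus and 2 were lower in cerebellum, the vesicular transporter gene SLC32A1 (-1.47 ± 0.46, SE, limma adjusted p = 0.012) and the uptake transporter gene SLC6A13 (-1.0 ± 0.40, limma adjusted p = 0.039), beside 61.7% of all genes lower. With the median of all genes at -1.1, SLC6A13 stood at that median. The list's median was 0.82 in cortex and 0.42 in hypothalamus, beside -0.13 and -0.28 for all genes, and -0.70 in cerebellum, beside -1.1. Of 16 transcription factors of forebrain inhibitory neurons, 0 passed in cortex, with a median of 0.01. In hypothalamus 2 were higher, LHX8 (1.17 ± 0.26, limma adjusted p = 0.017) and MEIS2 (1.25 ± 0.36, limma adjusted p = 0.044), and NPAS1 was lower (-1.11 ± 0.31, limma adjusted p = 0.040). Of all genes 3.79% were higher there and 7.78% lower. LHX8 acts in ventral forebrain neurons, MEIS2 in the striatal lineage and NPAS1 in interneurons. In cerebellum 3 of the list were higher and 4 lower, beside 10.2% and 61.7% of all genes, with a median of 0.02, beside -1.1 for all genes. The calls in hypothalamus recurred there, with LHX8 at 1.14 (limma adjusted p = 0.0025), MEIS2 at 1.31 (limma adjusted p = 0.0068) and NPAS1 at -2.02 (limma adjusted p = 0.00026). In cortex MEIS2 was 1.31 too but did not pass (limma adjusted p = 0.092).

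Of 10 interneuron subtype genes, 0 passed in cortex and 1 in hypothalamus. This was RELN, a secreted protein of some interneurons, higher by 1.40 ± 0.20 (SE, limma adjusted p = 0.0021), beside 3.79% of all genes higher. In forebrain against cerebellum 3 were higher and 0 lower, beside 43.5% and 5.51% of all genes. Of 7 genes of cerebellar inhibitory neurons, 0 passed in cortex and 1 in hypothalamus. There the Purkinje cell gene PCP2 was lower by -0.88 ± 0.25 (limma adjusted p = 0.040), beside 7.78% of all genes lower. In cerebellum 0 of these 7 were higher and 2 lower, beside 10.2% and 61.7% of all genes, with a median of 0.43 beside -1.1. The remaining DLX pair, DLX3 and DLX4, which is expressed in skin and placenta, gave 0 calls in cortex and hypothalamus and 1 in cerebellum, where DLX3 was lower by -2.04 ± 0.35 (limma adjusted p = 0.00046), beside a median of -1.1 for all genes. Beside these lists, the 6 DLX and GAD genes had medians of 0.02 in cortex, -0.03 in hypothalamus and -0.35 in cerebellum. The lists and the 6 genes share the same libraries.

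The genes whose peak bases followed each member best over the 16 libraries were sought outside the members' windows, as a description. For DLX1 they were BBS4, VSIG10L and RNASEK (Pearson r of 0.92, 0.91 and 0.91), and 559 genes reached 0.8, all 3 named genes being lowest in cerebellum. For DLX5 they were MMEL1, C14H22orf31 and OTOS (0.87, 0.83 and 0.82), and 6 genes reached 0.8. For GAD1 they were KRT19, FAM228A and DRD2 (0.83, 0.82 and 0.82), all lowest in spleen, and for GAD2 DSG1, ITGA8 and GNB4 (0.84, 0.84 and 0.83), all highest in cerebellum and lowest in skeletal muscle. The points share libraries and their scaling. Between partners r was 0.59 for DLX1 and DLX2, 0.26 for DLX5 and DLX6, and 0.03 for GAD1 and GAD2. The windows overlap within each DLX pair.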

How the data were processed

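ATAC-seq was performed on nuclei of 8 pig tissues from 2 animals, 16 libraries in all, and the 15 cattle libraries of the series were not used here. The authors called peaks in each library separately with MACS2 in broad mode at a q-value limit of 0.05. Trim Galore 0.4.5, BWA 0.7.17, SAMtools 1.10 and Picard 2.18.17 are named in the submitters' processing notes, while for steps specific to ATAC-seq no source used here gives the settings. The deposited lists hold a score, a fold enrichment (a ratio of signal to local background averaged over a broad peak), a −log10 p-value and a −log10 q-value for each peak. A q-value depends on depth, which was not used here, so no interval that needs reads is given.

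Genes came from NCBI annotation release 106 of Sscrofa11.1, the assembly of the lists, whose 270 sequence names all matched. The study used another annotation. Peak bases in each gene plus 10 kb were summed with bedtools 2.31.1, divided by the Mb of peak bases in the library and tested with limma 3.58.1 (R 4.3.3, trended eBayes) on log2(value + 1), for 19414 genes with a mean of 1 or more, with Benjamini-Hochberg adjustment over all of them, 8 residual degrees of freedom and a threshold of 0.05. The 1 added before the log2 understates changes of low genes. Samples were grouped by tissue from the labels. The animals pair the tissues because both gave all 8. The check of this, the correlation of deviations from the tissue mean between tissues of 1 animal, had a median of 0.01 over 28 tissue pairs (-0.167 to 0.123). The p-values measure the spread between the 2 libraries of a tissue, pooled over the 8 tissues, and all libraries come from these 2 littermates. Regions are peaks of the 16 libraries that share at least 1 bp. The fit was tested on simulated data.

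The 6 genes and the lists were chosen with earlier results of these data known. The named genes were the members, at most 3 of each list with the lowest p in the first comparison with a call, and the 3 genes most like DLX1, DLX5, GAD1 and GAD2. Sequences were taken from the TSS region and the distal region with the most forebrain libraries at each locus, ties going to the fewest other libraries and then to the highest mean fold, around the centre of the strongest peak and without untranslated bases.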

Additional observations from a re-analysis of the deposited data

Results flagged for a closer look

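Forebrain and cerebellum differed in their peak bases at DLX2 (log2 difference 1.07, higher in forebrain) and at GAD2 (-1.23, higher in cerebellum) when the tissues were compared directly. The median of all genes moved by 0.84 in the same comparison, and the GAD2 difference had the other sign among strong peaks (5.53). Groups of 2 libraries were too small for a search for outlying samples.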

How the results depend on the processing

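With the animal as a replicate block, the members called numbered 0 in cortex, 0 in hypothalamus, 3 in cerebellum, 2 in forebrain against cerebellum and 0 in hypothalamus against cortex, and the block changed no call of a member. Read depth was not used here, so weak peaks were not weighed by reads.

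Settings under which the number of members called moved include the following. With peaks of q under 0.0001 it was 2 in hypothalamus, 2 in cerebellum, 3 in forebrain against cerebellum and 1 in hypothalamus against cortex. With peak bases not scaled to the library it was 1 in cerebellum and 1 in forebrain against cerebellum. Centred on the median gene it was 1, and with windows of 2 kb it was 0, both in forebrain against cerebellum. The members called in cerebellum with centring were DLX6 and GAD2 only. For TSS fold it was 2 in cortex, 1 in hypothalamus and 2 in forebrain against cerebellum with libraries without a peak left out, and 2 in cerebellum without centring. Forebrain regions without a non-brain peak were 3 among strong peaks and 3 with a peak in either animal.

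Leaving out 1 library at a time, the number of members called ranged over 0 to 0 in cortex, hypothalamus and hypothalamus against cortex, 1 to 3 in cerebellum and 0 to 2 in forebrain against cerebellum. For TSS fold it ranged over 0 to 2 in cortex, 0 to 1 in hypothalamus, cerebellum and forebrain against cerebellum, and 0 to 0 in hypothalamus against cortex. In TSS fold, DLX2 ranged from -1.45 to 0.19 in cerebellum and from -0.24 to 1.40 in forebrain against cerebellum, and took the other sign without cerebellum P350.

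Over the settings other than left-out libraries, 65 of 390 log2 differences of peak bases had another sign than reported, 52 of them uncalled and within 2 SE. The rest follow. With q under 0.0001, hypothalamus was 0.85 for DLX1, -3.78 for DLX6 and 3.55 for GAD2, cerebellum was -2.18 for GAD2, forebrain against cerebellum 5.53 for GAD2, and hypothalamus against cortex -2.05 for DLX5. Centred on the median gene, cerebellum was 0.69 for DLX5, 0.79 for DLX6 and 0.78 for GAD1, and forebrain against cerebellum was -0.33 for DLX6. Without scaling, DLX6 was 0.45 in cerebellum and -0.29 in forebrain against cerebellum, and with lists of equal length -0.32 there. In TSS fold, DLX2 was 0.19 in cerebellum and -0.24 in forebrain against cerebellum with libraries without a peak left out, and DLX6 0.25 in the latter without centring. The cause of these changes was not tested. Centring and the TSS fold were added after the data were seen.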

Other observations

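Skeletal muscle, which is not a tissue of inhibitory neurons, had the highest GAD1 promoter fold of the 16 pig libraries (7.26 and 6.08) together with 2 regions of high fold inside GAD2 (5.53 and 6.90, and 6.58 and 9.54). It was compared with no other tissue by a test here, since it was 1 of the 5 non-brain tissues. In TSS fold, 10.6% of genes had both skeletal muscle libraries above all others. The share of regions with such folds in skeletal muscle was not counted.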
